A study of Mus musculus with 6 samples.

Results

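Apoptosis regulators, the receptors, adaptors, caspases, Bcl2 family proteins and inhibitors that carry out or hold back programmed cell death, were followed in adult testes of 3 inbred mouse strains. The list held 38 genes, and a gene was represented by the probe sets whose platform annotation gave its symbol alone. For 37 of the 38 such a probe set was found, 93 probe sets in all, and Bax was not analysed here. The probe set with the highest mean over the 6 arrays stood for the gene and the others served as a check: 10 genes had 1 probe set and 27 had several. All 37 passed the filter on low signal, among 14477 genes tested.

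Testis RNA was measured on 1 oligonucleotide array per sample, and the labels name no treatment. The groups were C57BL/6, AKR/N and MRL/MpJ-+/+ (MRL/MpJ below), with 2 mice of 8 weeks per strain by the series' design text and 2 arrays per strain. In the literature on the MRL strain, +/+ names the line without lpr, an allele of Fas; the labels do not state this. Values are probe set intensities in the authors' linear units, and the median probe set of an array lay between 28.0 and 30.7 units. Differences are given as log2(intensity + 16), which understates changes of dim genes, with the standard error (SE) or the 95% interval and limma's p-value adjusted over 29692 probe sets. A difference was called at an adjusted p under 0.05. With 2 arrays per strain, each comparison borrowed its error estimate from the 6 arrays and from probe sets of like brightness. The sample labels call the arrays of a strain replicates and tie none to a mouse, and the p-values measure the spread between these samples. The 95% interval of a member's difference reached 0.366 to each side in the median, and from 0.145 to 0.806 over the 37.

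Apoptosis runs along linked routes. In the receptor route, Fas ligand or tumour necrosis factor binds a death receptor, which recruits Fadd or Tradd and activates caspase 8. In the mitochondrial route, BH3-only proteins such as Bid, Bad and Bim (gene Bcl2l11) act on the survival proteins Bcl2, Bcl-x and Mcl1 and on the pore formers Bax and Bak, and cytochrome c that leaves the mitochondrion joins Apaf1 to activate caspase 9. In the testis a large share of germ cells is removed in this way during normal spermatogenesis, and Bcl2 family genes are needed for that removal and for male fertility.

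Of the 37 members, 10 were called in at least 1 of the pairwise comparisons and 27 in none, which is 27.0% against 21.0% of all genes tested. Between MRL/MpJ and C57BL/6, 7 members were called, 5 higher and 2 lower in MRL/MpJ, which is 18.9% against 12.2% of all genes tested (6.09% higher and 6.11% lower). Between AKR/N and C57BL/6, 6 were called, 5 higher and 1 lower in AKR/N, or 16.2% against 11.9% of all genes (6.38% and 5.49%). Between MRL/MpJ and AKR/N only Bad, higher, and Bcl2l14, lower in MRL/MpJ, were called, or 5.41% against 8.74% of all genes (3.67% and 5.06%). An F test over the 3 strains called 7 members, 18.9% against 18.4% of all genes. These shares lay near those of all genes, and the counts include Fas and Casp9, which passed the filter only through the strains where they were high. The median difference of the members was 0.0282, 0.0525 and 0.0291 in the 3 comparisons in that order, against 0.0102, 0.0054 and 0.00675 for all genes. The first became -0.0257 when the probe sets of each gene were averaged, 0.123 once C57BL/6 replicate 2 was left out and 0.1099 once MRL/MpJ replicate 1 was. The comparisons with C57BL/6 share its 2 arrays and are not independent.

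The counts depended on single arrays. The 7 members called between MRL/MpJ and C57BL/6 became 4 without C57BL/6 replicate 1, C57BL/6 replicate 2 or MRL/MpJ replicate 1, and 3 when MRL/MpJ replicate 2 was left out. The 6 between AKR/N and C57BL/6 became 2 without C57BL/6 replicate 2 or AKR/N replicate 1 and 3 when AKR/N replicate 2 was left out. The 2 between MRL/MpJ and AKR/N became 1 without AKR/N replicate 2, and the 7 of the F test became 4 without it. Casp9 in both comparisons with C57BL/6, and Bad and Birc2 between MRL/MpJ and C57BL/6, were called under each of 16 alternatives to the processing, which include leaving out each array in turn. Only the mean of a gene's probe sets brought in other probe sets. The rest kept the probe set that stood for the gene. For Casp9 and Bad that probe set was the brightest only in the strains where it was high, and the alternatives that kept it could not test this choice.

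**Figure D1:**
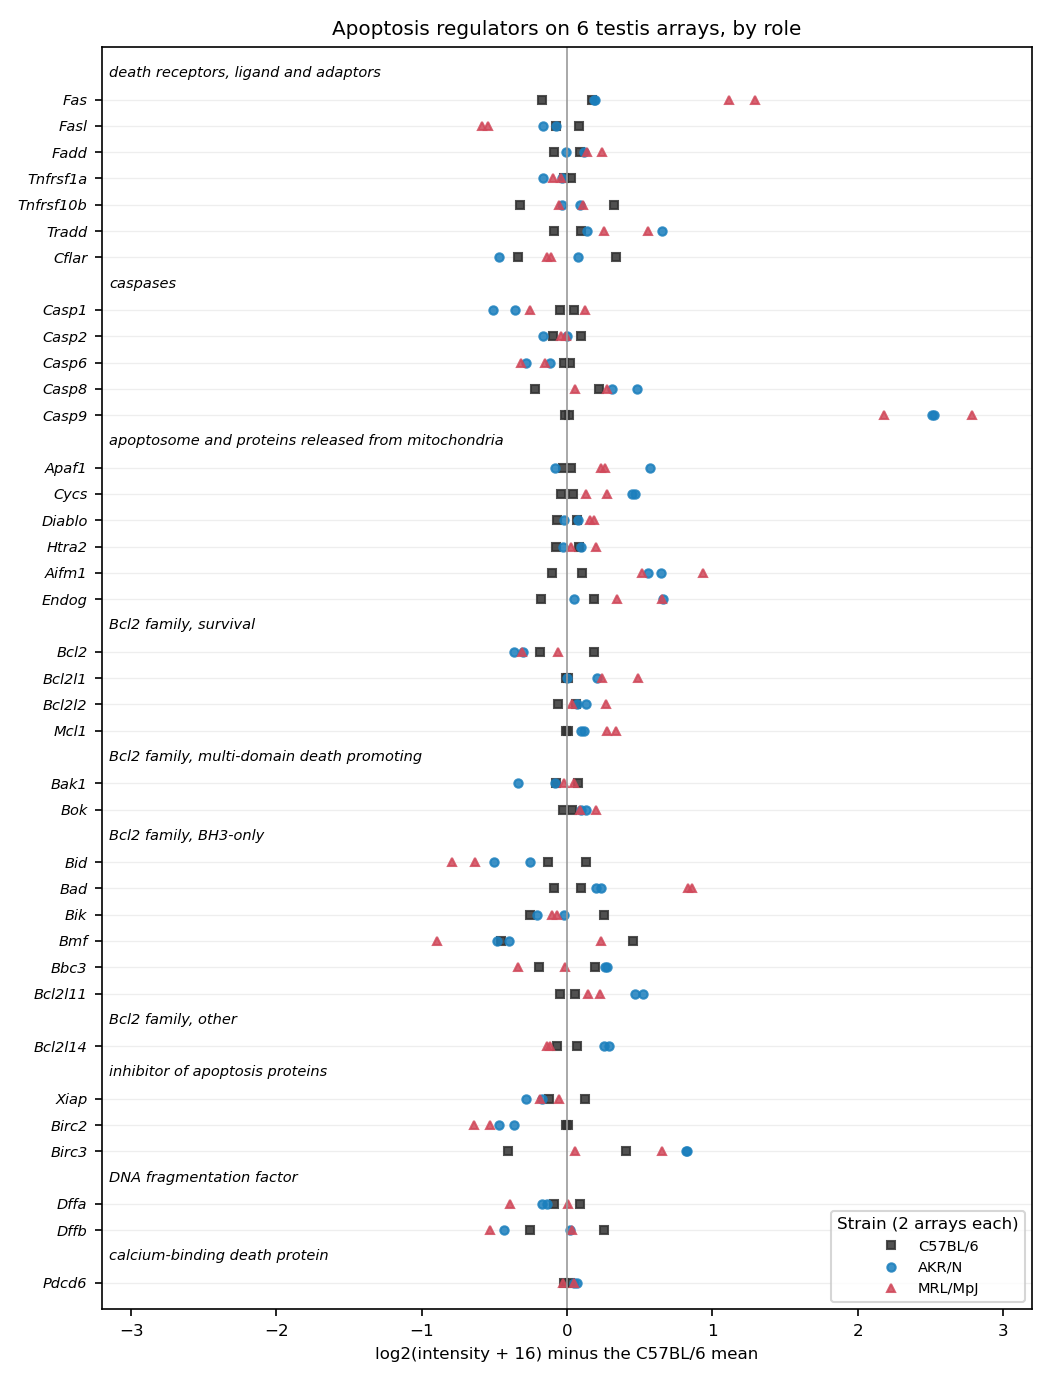
Level of the 37 apoptosis regulators on each of the 6 arrays, as log2(intensity + 16) minus the mean of the 2 C57BL/6 arrays (x axis), by gene and role (y axis). Squares, circles and triangles are single arrays of C57BL/6, AKR/N and MRL/MpJ. Most genes lie close to 0, while Casp9 of AKR/N and MRL/MpJ and Fas of MRL/MpJ stand to the right.

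**Figure D2:**
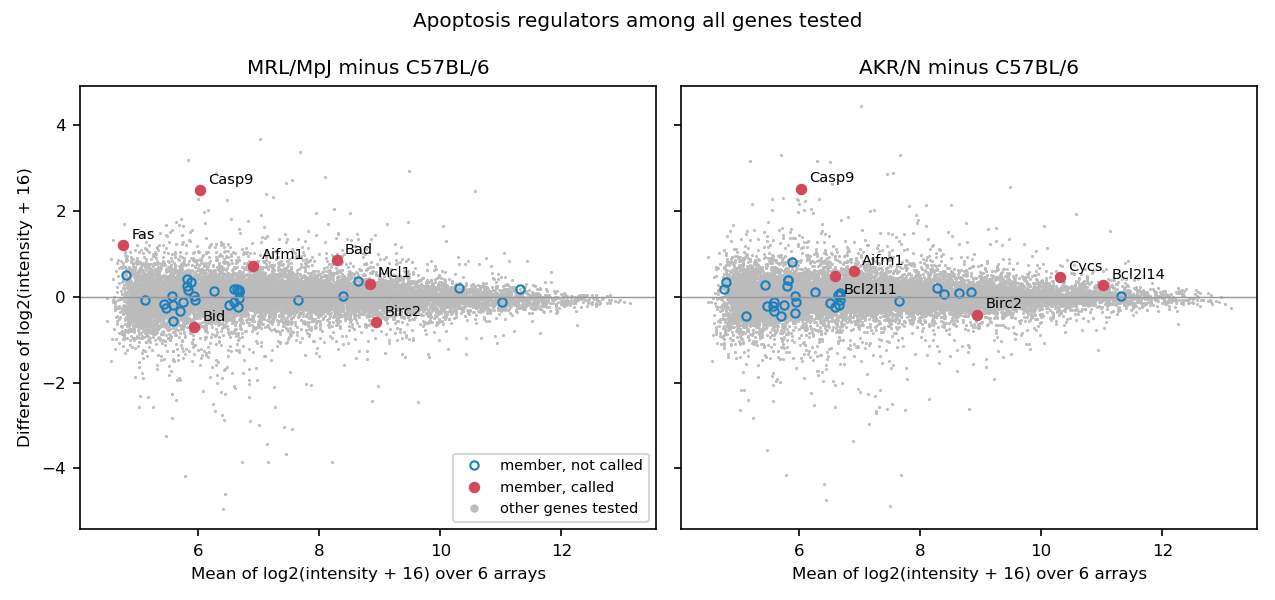
Difference from C57BL/6 (y axis, log2(intensity + 16)) against the mean level over 6 arrays (x axis, same scale) for 14477 genes in grey, with uncalled members as open circles and called members as filled, named circles. The left panel shows MRL/MpJ and the right AKR/N, and Casp9 lies near the upper edge of the cloud in each, at 2.48 and 2.52.

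Reference promoters are shown for the members called under each alternative, Casp9, Bad and Birc2, and for Cycs, which shares a motif with Birc2. Each runs 5′ to 3′ on the gene's strand over 300 bases, 250 before and 50 after the annotated start, from RefSeq in build GRCm38.p6, the C57BL/6J assembly. The alleles of the other strains were not used here. Of the 38 members, 34 had a promoter in the table, and the most upstream start was taken for genes with several.
Capitals mark the letters of 4 motifs searched on both strands, none of which contains another: the GC box GGGCGG, the CCAAT box CCAAT, the TATA box TATAAA and the cyclic AMP response element TGACGTCA, which binds CREM, a regulator of spermatid genes. The windows are chr4:141793362-141793661 on the plus strand for Casp9, chr19:6941611-6941910 on the plus strand for Bad, chr9:7837008-7837307 on the minus strand for Birc2 and chr6:50566520-50566819 on the minus strand for Cycs.
Casp9: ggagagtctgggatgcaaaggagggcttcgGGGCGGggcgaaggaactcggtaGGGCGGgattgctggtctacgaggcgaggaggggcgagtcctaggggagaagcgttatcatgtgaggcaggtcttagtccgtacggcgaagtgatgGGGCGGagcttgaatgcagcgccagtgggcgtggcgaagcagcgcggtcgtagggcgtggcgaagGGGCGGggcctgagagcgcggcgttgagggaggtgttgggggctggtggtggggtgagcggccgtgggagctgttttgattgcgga
Bad: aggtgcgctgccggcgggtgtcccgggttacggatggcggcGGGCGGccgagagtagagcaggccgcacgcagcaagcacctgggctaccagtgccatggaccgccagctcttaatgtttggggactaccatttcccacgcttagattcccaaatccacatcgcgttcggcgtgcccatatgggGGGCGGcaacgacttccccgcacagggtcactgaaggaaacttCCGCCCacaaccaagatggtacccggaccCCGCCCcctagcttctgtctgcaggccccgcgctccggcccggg
Birc2: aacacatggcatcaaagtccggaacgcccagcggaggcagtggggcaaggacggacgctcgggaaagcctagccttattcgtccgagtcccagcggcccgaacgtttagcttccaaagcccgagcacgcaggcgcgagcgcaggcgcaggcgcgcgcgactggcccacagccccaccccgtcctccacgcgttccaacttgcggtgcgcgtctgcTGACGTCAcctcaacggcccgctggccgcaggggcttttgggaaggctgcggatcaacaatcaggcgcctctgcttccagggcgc
Cycs: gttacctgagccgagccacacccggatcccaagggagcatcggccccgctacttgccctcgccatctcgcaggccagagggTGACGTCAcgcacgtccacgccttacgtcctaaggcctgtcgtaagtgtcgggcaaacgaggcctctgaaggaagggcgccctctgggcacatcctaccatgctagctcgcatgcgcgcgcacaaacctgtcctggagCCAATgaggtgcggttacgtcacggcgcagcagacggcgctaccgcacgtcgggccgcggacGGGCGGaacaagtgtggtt

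The Casp9 and Bad windows each held 4 GC boxes and none of the other motifs, at a GC content of 66% and 65.7%. The Birc2 window (67% GC) held 1 cyclic AMP response element and the Cycs window (65% GC) held 1, with 1 GC box and 1 CCAAT box. The cyclic AMP response element stood in 2 of 34 member promoters, those of Birc2 and Cycs (5.88%, against 1.79% of 32851 promoters). A GC box stood in 24 of the 34 (70.6% against 35.7%), a CCAAT box in 11 (32.4% against 37.4%) and a TATA box in 1, that of Cflar (2.94% against 13.6%). The 32851 promoters count every listed start of a gene and the 34 count 1 start per member, so the units differ. A match describes letters in the reference and not binding.

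Death receptors and their adaptors were called in 1 gene of 7 (21.0% of all genes were called in any comparison). Fas, the receptor for Fas ligand, was higher in MRL/MpJ testes than in those of C57BL/6. Its probe set (1460251_at) read 1.49 and 6.13 units on the C57BL/6 arrays, 6.37 and 6.49 on the AKR/N arrays and 32.1 and 26.6 on the MRL/MpJ arrays. The MRL/MpJ arrays stood apart from all others, and the other 4 lay under the 40th percentile of their array. Fas therefore passed the filter only through the MRL/MpJ arrays, so that its being tested already required a difference. The difference was 1.20 (SE 0.302, adjusted p = 0.0298), and against the filter's threshold in C57BL/6, at 19.1 to 20.8 units, MRL/MpJ was at least 1.47-fold higher. It was 2.84 with a pseudocount of 1 (adjusted p = 0.096) and 0.46 with 64 (adjusted p = 0.0178). The call was lost without C57BL/6 replicate 1 (adjusted p = 0.0975), MRL/MpJ replicate 1 (0.196) or MRL/MpJ replicate 2 (0.126). Against AKR/N the MRL/MpJ arrays were higher by 1.01 (adjusted p = 0.0755).

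Fasl, the ligand of Fas, read 37.5 and 43.7 units in C57BL/6, 37.7 and 34.4 in AKR/N and 22.8 and 21.7 in MRL/MpJ. The MRL/MpJ arrays were the lowest, at -0.56 against C57BL/6 with an interval from -0.998 to -0.131, and the difference was not called (adjusted p = 0.102). On the second probe set of Fasl the arrays of the strains overlapped (30.8 and 29.1, 26.3 and 21.2, and 31.6 and 16.7 units). Fas and Fasl are also made by immune cells, so macrophage and T cell markers were summed beside them. The sum of 8 macrophage markers was 2527 to 2556 units for C57BL/6, 2902 to 3011 for AKR/N and 2752 to 2899 for MRL/MpJ. Of the 7 tested, only Fcgr3 was called higher in each strain, with means of 667 units for MRL/MpJ, 236 for AKR/N and 148 for C57BL/6. Aif1, the brightest of the 8, averaged 1620 units for MRL/MpJ, 2148 for AKR/N and 1846 for C57BL/6. Against C57BL/6, 2 of the 7 were positive in MRL/MpJ (median -0.0287) and 5 in AKR/N (median 0.0213). The higher MRL/MpJ sum was therefore not shared by most of these markers. The 7 T cell markers summed to 109 to 128 units in C57BL/6, 178 to 246 in AKR/N and 67.9 to 100.4 in MRL/MpJ. Cd3g and Cd4 lay under the filter on every array. Of 3 tested markers, Cd3d was called higher in AKR/N, at 113 and 173 units there and 1.17 to 2.31 elsewhere. Cd3e and Cd8a lay lower in AKR/N than in C57BL/6 (-0.44 and -0.59), without a call. The part of macrophages and T cells in the Fas and Fasl values was not tested. In RNA of a tissue with many cell types, fewer cells of a type and less RNA per cell cannot be told apart.

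The other members of the receptor route were not called in any comparison. Tnfrsf1a, the main receptor of tumour necrosis factor, read 169.8 to 196 units over the 6 arrays, and its differences from C57BL/6 were -0.07 in MRL/MpJ (interval -0.30 to 0.16) and -0.10 in AKR/N (-0.33 to 0.13). Fadd, the adaptor of Fas, read 72.8 to 96.0 units, with 0.19 in MRL/MpJ (-0.12 to 0.50). Tradd, the adaptor of Tnfrsf1a, read 34.0 and 28.0 units in C57BL/6, 35.5 and 57.8 in AKR/N and 52.9 and 39.9 in MRL/MpJ, a difference of 0.40 in each strain (adjusted p = 0.3 in MRL/MpJ and 0.318 in AKR/N). Tnfrsf10b, a TRAIL receptor, and Cflar, which blocks caspase 8, spread widely within C57BL/6. The C57BL/6 arrays of Tnfrsf10b read 59.8 and 32.2 units, a span that held the other 4 arrays. Those of Cflar read 29.7 and 57.2 units, a span that held 3 of the other 4.

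Among 5 caspases, Casp9 differed and Casp1, Casp2, Casp6 and Casp8 were not called (21.0% of all genes were called in any comparison). Casp9, the caspase that the complex of cytochrome c and Apaf1 activates, read 4.53 and 4.85 units on the C57BL/6 arrays, 102 and 103 on the AKR/N arrays and 127 and 78.0 on the MRL/MpJ arrays (probe set 1457816_at). The C57BL/6 arrays lay under the 40th percentile of their array and the other 4 above it, so Casp9 passed the filter through the strains in which it was high. C57BL/6 averaged 4.69 ± 0.228 units, AKR/N 103 ± 0.454 and MRL/MpJ 102 ± 34.3 (SD, n = 2). The difference was 2.48 in MRL/MpJ (SE 0.206, adjusted p = 3.2e-05) and 2.52 in AKR/N (SE 0.206, adjusted p = 2.95e-05). On probe set 1457816_at, against the filter's threshold in C57BL/6, the signal was at least 4.98-fold higher in MRL/MpJ and at least 5.14-fold higher in AKR/N. The bound holds for this probe set and not for the gene, whose other probe sets are given below. MRL/MpJ and AKR/N differed by -0.03 (interval -0.49 to 0.42). The size depended on the pseudocount, at 4.14 and 4.19 with 1 and at 1.26 and 1.28 with 64.

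The other probe sets of Casp9 showed smaller differences. Probe set 1437537_at read 35.0 and 43.5 units in C57BL/6, 60.4 and 63.9 in AKR/N and 68.7 and 75.7 in MRL/MpJ, with the C57BL/6 arrays lowest. It differed by 0.68 in MRL/MpJ (adjusted p = 0.0235) and by 0.50 in AKR/N (adjusted p = 0.0793). Probe set 1426125_a_at read 40.2 and 28.7, 35.4 and 56.6, and 36.2 and 43.8 units, with overlapping strains, and was not called. As the mean of the 3 probe sets Casp9 differed by 1.11 in MRL/MpJ (adjusted p = 0.0016) and 1.10 in AKR/N (adjusted p = 0.00162). The probe sets shared a direction, and a C57BL/6 signal under the filter's threshold was seen on 1 of the 3. Both other probe sets were brighter than it in C57BL/6, so 1457816_at stood for the gene through its AKR/N and MRL/MpJ arrays.

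The genes next to Casp9 in the GRCm38.p6 annotation were looked up after its values were seen. Dnajc16, a DnaJ family gene on its 5′ side, read 106 and 103 units in C57BL/6, 221 and 222 in AKR/N and 176 and 199 in MRL/MpJ, and was higher by 0.75 in MRL/MpJ (adjusted p = 0.0016) and 0.98 in AKR/N (adjusted p = 0.000267). Cela2a, an elastase gene on its 3′ side, whose annotated bounds overlap those of Casp9, read 24.7 and 13.5, 25.2 and 27.3, and 3.74 and 21.8 units and was not called. Casp9 and its neighbour Dnajc16 were both lowest in C57BL/6, and the annotated bounds of these 2 genes do not overlap. Whether transcripts of Cela2a add to the Casp9 signal was not tested.

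**Figure D3:**
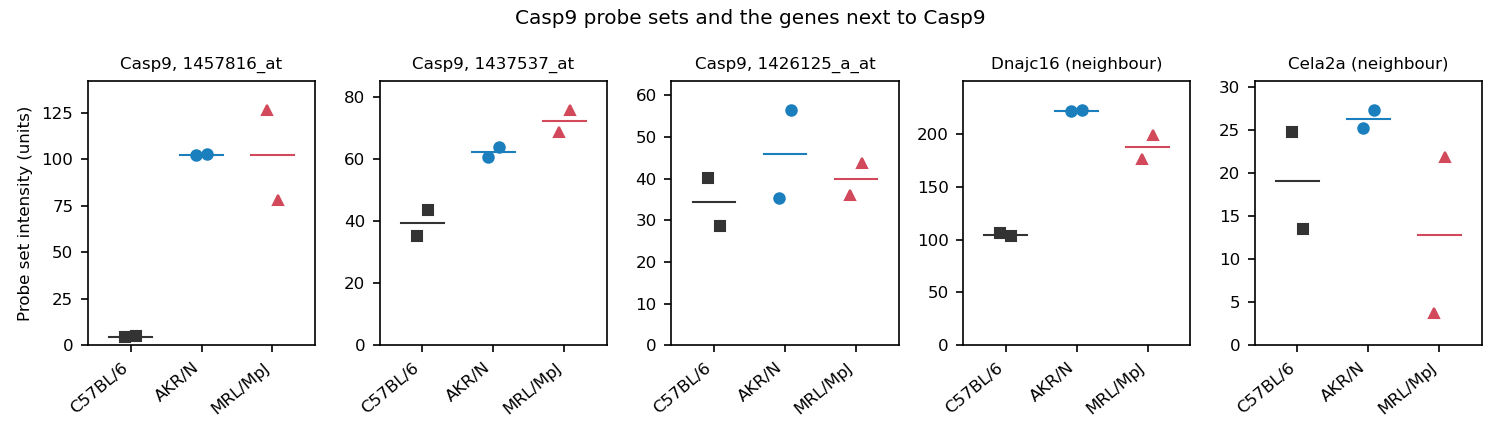
Intensity in the authors' units (y axis, from 0, with its own scale in each panel) on each array of the 3 strains (x axis) for the 3 probe sets of Casp9 and for its neighbours Dnajc16 and Cela2a. Points are arrays and horizontal lines are means of 2; the first Casp9 probe set is at 4.53 and 4.85 units in C57BL/6 and at 78.0 or more elsewhere.

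Casp8, the caspase of the receptor route, read 26.8 and 42.2 units in C57BL/6, 45.9 and 53.6 in AKR/N and 44.5 and 35.9 in MRL/MpJ. The AKR/N arrays lay above the others, at 0.40 over C57BL/6 with an interval from -0.06 to 0.85. Casp6, an executioner caspase, read 74.0 to 97.5 units with differences of -0.23 in MRL/MpJ (-0.54 to 0.07) and -0.20 in AKR/N (-0.51 to 0.11), neither called. Casp2 stood between 77.4 and 95.9 units on all arrays, with -0.03 (-0.33 to 0.28) and -0.08 (-0.39 to 0.23). Casp1, the caspase that processes interleukin 1 beta, was dim, at 11.5 to 26.8 units, and above the filter's threshold on 3 arrays.

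The apoptosome and the proteins released from mitochondria lay in the positive direction in all 6 genes in both comparisons with C57BL/6, with medians of 0.225 in MRL/MpJ and 0.298 in AKR/N, and 2 of the 6 were called. Across all genes tested, 51.4% and 50.9% lay in that direction, and 21.0% were called in any comparison. The shared direction of the 6 holds for the probe sets that stand for the genes. Other tested probe sets lay in the opposite direction for Diablo (-0.58 in MRL/MpJ and -0.51 in AKR/N), Apaf1 (-0.13 and -0.25) and Cycs (-0.06 in MRL/MpJ on 1 of 2), none of them called. Aifm1, apoptosis-inducing factor, a flavoprotein of the mitochondrial intermembrane space, read 79.3 and 66.3 units in C57BL/6, 114 and 123 in AKR/N and 110.5 and 153 in MRL/MpJ. The C57BL/6 arrays were below the other 4, by 0.72 in MRL/MpJ (SE 0.159, adjusted p = 0.016) and 0.60 in AKR/N (SE 0.159, adjusted p = 0.0381). Aifm1 had 1 probe set. The MRL/MpJ call ended when C57BL/6 replicate 2 (adjusted p = 0.094) or MRL/MpJ replicate 2 (0.135) was left out. The AKR/N call ended without C57BL/6 replicate 1 (0.0528), C57BL/6 replicate 2 (0.19), AKR/N replicate 1 (0.124) or AKR/N replicate 2 (0.191).

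Cycs, which encodes somatic cytochrome c, the electron carrier that triggers the apoptosome once in the cytosol, was higher in AKR/N. It read 1103 and 1040.0 units in C57BL/6, 1490.4 and 1462 in AKR/N and 1299 and 1172 in MRL/MpJ, in 3 groups that did not overlap. The difference was 0.46 in AKR/N (SE 0.0733, adjusted p = 0.0029), and in MRL/MpJ 0.20 with an interval from 0.04 to 0.36 (adjusted p = 0.117). The 2 other tested probe sets of Cycs gave 0.16 and 0.20 in AKR/N without a call, and the mean over its probe sets 0.27 (adjusted p = 0.125). Diablo, which releases caspases from their inhibitors, read 2322 to 2762 units and differed by 0.17 in MRL/MpJ (0.02 to 0.32, adjusted p = 0.147), with its second probe set in the opposite direction at -0.58 (adjusted p = 0.0599). Apaf1, the scaffold of the apoptosome, read 33.2 and 35.2, 58.4 and 31.3, and 44.2 and 43.1 units and was not called. Htra2, a mitochondrial serine protease, and Endog, a mitochondrial nuclease, were not called either, and Endog passed the filter on 2 arrays only, at 4.22 to 20.3 units.

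Of the 4 survival members of the Bcl2 family, Mcl1 was called and Bcl2, Bcl2l1 and Bcl2l2 were not. Of all genes, 21.0% were called in any comparison. Mcl1 read 397 and 401 units in C57BL/6, 434 and 428 in AKR/N and 507 and 487 in MRL/MpJ, with no overlap between strains. The difference between MRL/MpJ and C57BL/6 was 0.31 (SE 0.0793, adjusted p = 0.0346). Its call was lost with any of the 6 arrays left out (adjusted p from 0.0589 without AKR/N replicate 1 to 0.184 when MRL/MpJ replicate 1 was out). Of its 5 other tested probe sets, 4 lay in the same direction and none was called, and the mean over probe sets differed by 0.12 (adjusted p = 0.358).

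Bcl2l1 encodes Bcl-x and is spliced into a long survival form and a short death-promoting form. It gave opposite results on 2 of its 4 probe sets. Probe positions were not used here, so the probe sets were not assigned to the forms. Probe set 1420888_at read 340.0 and 344 units in C57BL/6, 341 and 396 in AKR/N and 408 and 486 in MRL/MpJ, a difference of 0.37 in MRL/MpJ (adjusted p = 0.0567). Probe set 1420887_a_at read 124 and 134, 73.3 and 106, and 79.2 and 75.6 units, and its difference in MRL/MpJ was -0.64 (adjusted p = 0.03). The MRL/MpJ arrays were the highest on the first and below C57BL/6 on the second. Bcl2 was dim, at 26.4 to 45.9 units, with -0.19 in MRL/MpJ (-0.66 to 0.29) and -0.33 in AKR/N (-0.81 to 0.14). Bcl2l2, which encodes Bcl-w, a protein needed for spermatogenesis in mice, differed by 0.15 (-0.16 to 0.46) and 0.10 (-0.21 to 0.41). The pore formers Bak1 and Bok were not called. Bak1 read 31.1 and 36.3 units in C57BL/6, 30.8 and 23.3 in AKR/N and 35.4 and 32.9 in MRL/MpJ. Bok read 55.1 and 58.3, 63.6 and 61.7, and 61.5 and 67.4 units, lowest in C57BL/6, at 0.15 in MRL/MpJ (-0.18 to 0.47) and 0.11 in AKR/N (-0.21 to 0.44).

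Of the 6 BH3-only genes, which sense damage or lost survival signals, 3 were called in at least 1 comparison, in different directions, beside the 21.0% of all genes called in any. Bad, which growth factor signalling keeps inactive by phosphorylation, was higher in MRL/MpJ than in both other strains on 1 of its 2 probe sets. It read 214 and 245 units in C57BL/6, 265 and 271 in AKR/N and 420.3 and 428 in MRL/MpJ (probe set 1416582_a_at), and the MRL/MpJ arrays were far above the rest. The difference was 0.85 against C57BL/6 (SE 0.0958, adjusted p = 0.000287) and 0.63 against AKR/N (SE 0.0958, adjusted p = 0.00313). AKR/N against C57BL/6 differed by 0.21 (adjusted p = 0.205). The other probe set of Bad (1416583_at) read 273 and 324, 284 and 295, and 308 and 315 units, and its differences of 0.06 and 0.10 were not called. It was the brighter probe set in C57BL/6 and AKR/N, so 1416582_a_at stood for the gene through its MRL/MpJ arrays. The means over both probe sets were 0.46 (adjusted p = 0.0149) and 0.37 (adjusted p = 0.0464). The annotated bounds of Bad overlap those of Gpr137, which read 269.7 to 316 units over the arrays and was not called.

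Bid, which caspase 8 cleaves to link the receptor route to mitochondria, was lower in MRL/MpJ. It read 55.9 and 70.2 units in C57BL/6, 39.6 and 49.9 in AKR/N and 29.4 and 34.6 in MRL/MpJ, with no overlap between strains. The difference from C57BL/6 was -0.71 (SE 0.187, adjusted p = 0.0354) in MRL/MpJ and -0.38 (-0.79 to 0.03) in AKR/N. The call was lost without C57BL/6 replicate 1 (adjusted p = 0.053), C57BL/6 replicate 2 (0.176), AKR/N replicate 2 (0.0518), MRL/MpJ replicate 1 (0.169) or MRL/MpJ replicate 2 (0.0896). Its other probe sets were too dim to be tested, and the mean over all 3 differed by -0.19 (adjusted p = 0.619).

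Bcl2l11, which encodes Bim, was higher in AKR/N. It read 64.2 and 70.1 units in C57BL/6, 98.8 and 103 in AKR/N and 76.0 and 81.2 in MRL/MpJ, and the AKR/N arrays were the highest. The difference was 0.49 (SE 0.135, adjusted p = 0.0434), its 3 other tested probe sets lay in the same direction without a call, and leaving out any array ended the call (adjusted p from 0.0622 without MRL/MpJ replicate 1 to 0.207 without AKR/N replicate 2). The gene's annotated bounds overlap those of Acoxl. Bik, Bmf and Bbc3, which encodes Puma, a p53 target, were not called. They read 38.5 to 61.6, 17.6 to 69.7 and 17.7 to 35.5 units, and the 2 C57BL/6 arrays of Bmf alone differed as widely as 29.6 and 69.7.

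Bcl2l14, which encodes Bcl-G, a Bcl2 family protein made in testis, was highest in AKR/N. It read 2098 and 1911 units in C57BL/6, 2396 and 2444 in AKR/N and 1817 and 1839.9 in MRL/MpJ. Strains did not overlap, and AKR/N exceeded C57BL/6 by 0.27 (SE 0.0657, adjusted p = 0.0259), while MRL/MpJ differed from AKR/N by -0.40 (SE 0.0657, adjusted p = 0.00495). The first call was lost without C57BL/6 replicate 2 (adjusted p = 0.162), AKR/N replicate 1 (0.114) or AKR/N replicate 2 (0.159), and the second without AKR/N replicate 2 (0.0597). Its second probe set, 1429347_at, read 121 and 134, 101 and 116, and 76.4 and 94.2 units. There the difference from C57BL/6 was -0.20 in AKR/N (adjusted p = 0.427) and -0.51 in MRL/MpJ (adjusted p = 0.0447), so that MRL/MpJ was lowest on each probe set and AKR/N highest on the first alone.

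**Figure D4:**
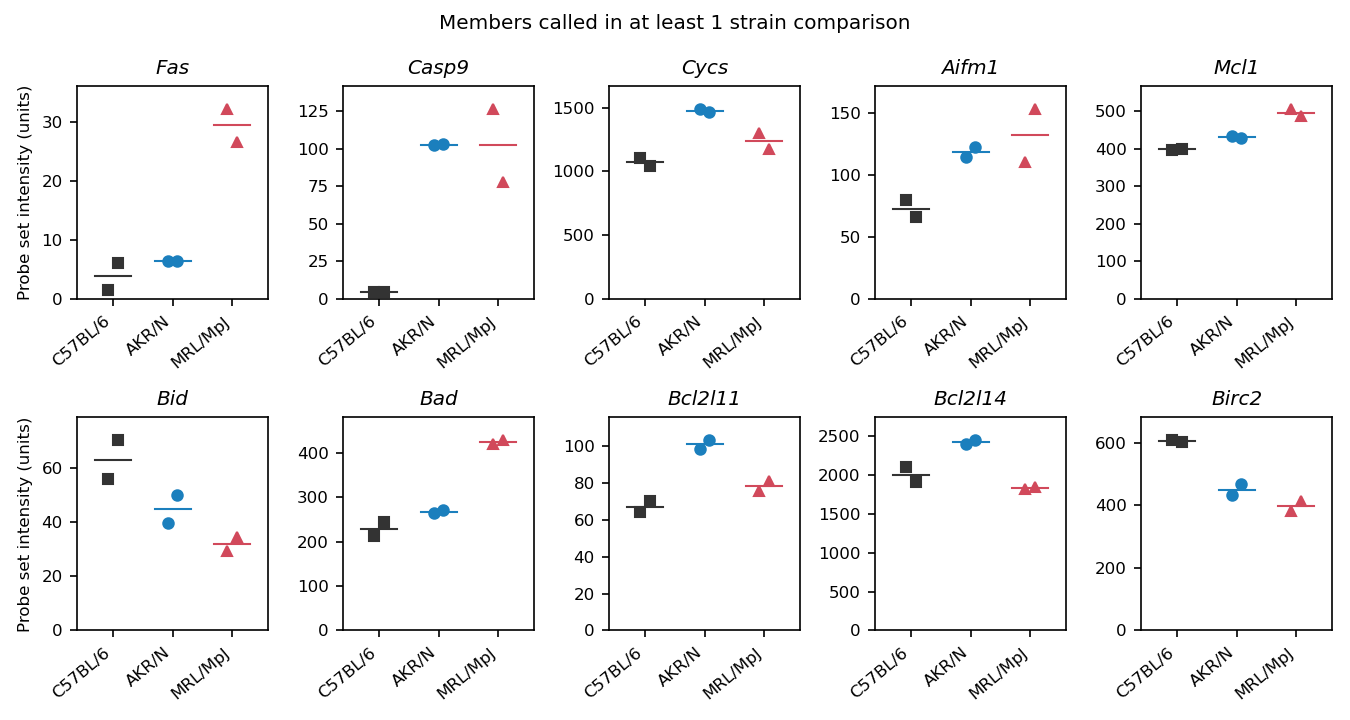
Intensity in the authors' units (y axis, from 0, with its own scale in each panel) on each array of the 3 strains (x axis) for the 10 members called in at least 1 comparison. Points are arrays and horizontal lines are means of 2; Casp9 and Aifm1 are lowest and Birc2 highest in C57BL/6, and Bad is highest in MRL/MpJ at 420.3 and 428 units.

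**Figure D5:**
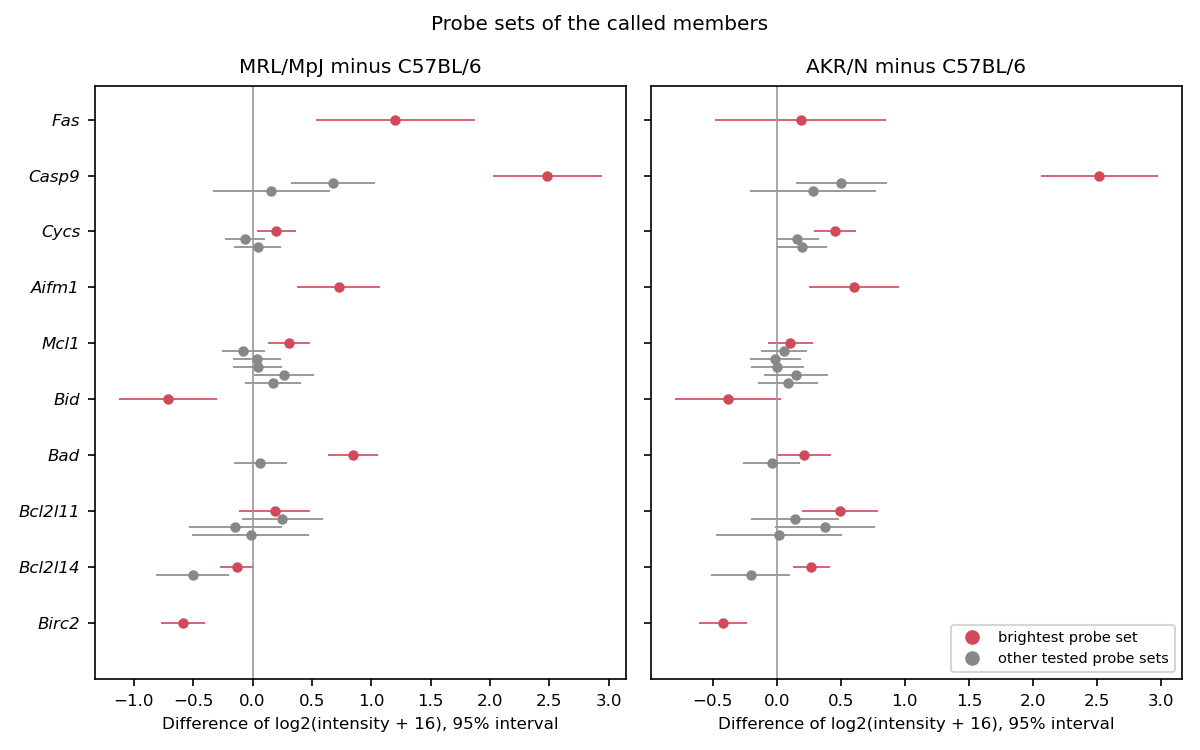
Difference from C57BL/6 with its 95% interval (x axis, log2(intensity + 16)) for every tested probe set of the 10 called members (y axis), in MRL/MpJ on the left and AKR/N on the right. Red points are the probe sets that stand for the gene and grey points the others; for Casp9, Bad and Mcl1 the grey points lie closer to 0 than the red one in MRL/MpJ.

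The inhibitor of apoptosis protein Birc2 (cIAP1), a ubiquitin ligase that restrains caspase 8 signalling below tumour necrosis factor receptors, was lower in both strains than in C57BL/6. It read 607 and 604 units in C57BL/6, 433 and 466 in AKR/N and 383 and 415 in MRL/MpJ. The C57BL/6 arrays agreed closely and stood above the other 4. The difference was -0.58 in MRL/MpJ (SE 0.0835, adjusted p = 0.00146) and -0.42 in AKR/N (SE 0.0835, adjusted p = 0.01), the latter lost without C57BL/6 replicate 2 (adjusted p = 0.0506) or AKR/N replicate 1 (0.0913). Birc2 had 1 probe set. Its neighbour and paralogue Birc3 (cIAP2) lay in the other direction without a call, at 43.8 and 18.0 units in C57BL/6, 63.5 and 63.7 in AKR/N and 30.8 and 55.1 in MRL/MpJ, with 0.82 in AKR/N (0.21 to 1.44, adjusted p = 0.0962). Xiap, which binds and blocks caspases directly, read 70.5 to 98.3 units and differed by -0.12 in MRL/MpJ (-0.45 to 0.20) and -0.23 in AKR/N (-0.55 to 0.10).

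The remaining members act late or beside these routes, and none was called. Dffb, the nuclease that cuts DNA between nucleosomes, and Dffa, its inhibitor and chaperone, read 18.0 to 42.8 and 59.8 to 90.1 units. The arrays of Dffa read 77.3 and 90.1 in C57BL/6, 74.5 and 72.4 in AKR/N and 84.0 and 59.8 in MRL/MpJ. In MRL/MpJ they differed from C57BL/6 by -0.25 (-0.87 to 0.37) and -0.19 (-0.56 to 0.17). Pdcd6 (ALG-2), a calcium-binding protein, read 311 and 322 units in C57BL/6, 328 and 333 in AKR/N and 310.1 and 328 in MRL/MpJ, with 0.01 in MRL/MpJ (-0.18 to 0.20) and 0.06 in AKR/N (-0.13 to 0.25).

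Other genes of the pathway came from 5 lists of 87 genes, of which 62 were tested. Between MRL/MpJ and C57BL/6, 2 were called higher and 2 lower, between AKR/N and C57BL/6 3 higher and 2 lower, and between MRL/MpJ and AKR/N 0 higher by limma (3 at an unadjusted p under 0.05) and 3 lower, or 6.45%, 8.06% and 4.84% of those tested. Of all genes tested, 12.2%, 11.9% and 8.74% were called in these comparisons. In any comparison 10 of the 62 were called, 16.1% against 21.0% of all genes. The list of Bcl2 family genes and partners held 5 of the 10, among 13 tested in that list (38.5%). The 4 of these 5 with the smallest adjusted p are given. Bag3, a co-chaperone that binds Bcl2, averaged 315 ± 12.4 units in C57BL/6, with 212 ± 18.3 for AKR/N and 207 ± 30.2 for MRL/MpJ (SD, n = 2), and differed by -0.58 in MRL/MpJ (adjusted p = 0.0107) and -0.54 in AKR/N (adjusted p = 0.0145). Bnip2, a partner of Bcl2, averaged 217 ± 1.26, 319 ± 39.4 and 289 ± 5.45 units in the same order, and differed by 0.39 (adjusted p = 0.0372) and 0.52 (adjusted p = 0.00962). Tmbim6, which suppresses cell death induced by Bax, was higher by 0.33 in AKR/N (adjusted p = 0.025). Vdac1, a channel of the outer mitochondrial membrane, was higher by 0.47 there (adjusted p = 0.0407). Bag3 and Birc2 were highest in C57BL/6, and Bnip2 and Aifm1 lowest there.

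Among relatives, regulators and targets of p53, 3 of 16 tested genes were called in at least 1 comparison (18.8%, against 21.0% of all genes). Ei24, a p53 target of the endoplasmic reticulum, averaged 153 ± 2.33 units in C57BL/6, with 206 ± 9.69 for AKR/N and 280.1 ± 46.9 for MRL/MpJ, and was 0.80 higher in MRL/MpJ than in C57BL/6 (adjusted p = 0.002). Mdm4, an inhibitor of p53, differed by -0.60 in MRL/MpJ against AKR/N (adjusted p = 0.00571), and Zmat3 by -0.545 in AKR/N against C57BL/6 (adjusted p = 0.0227). Of the receptors, ligands and adaptors, Ltbr, the lymphotoxin beta receptor, was called at -0.47 in MRL/MpJ against C57BL/6 (adjusted p = 0.0422). Of the caspase partners, Aven, an inhibitor of caspase activation, was called at -0.35 in MRL/MpJ against AKR/N (adjusted p = 0.0162). None of 13 tested inhibitors, nucleases and genes of late steps was called by limma in any comparison, and 1 of the 13 had an unadjusted p under 0.05 in each comparison.

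Markers of some testis cell types differed between the strains beside these genes. All 9 spermatocyte and all 10 elongating spermatid markers passed the filter, as did 7 of 7 found for round spermatids, so the defining germ cell signals of adult testis were present on each strain's arrays. Summed over 5 Leydig cell markers, C57BL/6 had an intensity of 3321 to 3417 units, AKR/N of 5414 to 5938 and MRL/MpJ of 5478 to 5676, above C57BL/6 in both strains as Casp9 and Aifm1 were. Of the 5, 4 were called higher in each strain. Adipose tissue markers lay the same way: 4 summed to 165 to 179.8 units in C57BL/6, 264 to 548 in AKR/N and 242 to 257 in MRL/MpJ, with Fabp4 called in both strains (1.43 in MRL/MpJ, adjusted p = 0.0496, and 2.29 in AKR/N, adjusted p = 0.00498), Car3 called in AKR/N and Lep under the filter on every array. The 9 Sertoli cell markers summed to 5726 to 5878, 6834 to 7003 and 5779 to 5993 units, with all 8 tested above C57BL/6 in AKR/N and 3 of them called, and Amh under the filter on every array. The 9 spermatocyte markers summed to 8619 to 8709.7, 5674 to 6817 and 8234 to 8747 units, lowest in AKR/N, where Bcl2l11, Bcl2l14 and Cycs were highest. Against C57BL/6, 5 of the 9 were called lower in AKR/N and only Hormad1 lay higher (0.298, not called). In MRL/MpJ, with a sum near that of C57BL/6, 3 were called lower and Hormad1 higher (0.89). The 7 round spermatid markers summed to 11154 to 12368, 11814 to 12237 and 9520.3 to 9555 units, lowest in MRL/MpJ. There Bcl2l14 and Bid were lowest, and Bad was highest on the probe set that stood for it. The 10 elongating spermatid markers summed to 60628 to 66066, 56333 to 60103 and 52740 to 58772 units, highest in C57BL/6, as Birc2 was. Against C57BL/6, Hbb-b2 of blood was called higher in MRL/MpJ (1.52) and AKR/N (0.87). Of the spermatogonial markers, Kit was called in MRL/MpJ (0.58) and Gfra1 in AKR/N (1.08). No peritubular muscle or endothelium marker was called by limma. The part of these markers in the members' differences was not tested.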

How the data were processed

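The samples were total RNA of testis, labelled with biotin for the array by the kit named in the labels' protocols. The authors deposited 1 linear intensity value per probe set. Judged from the values, arrays had been scaled to a common trimmed mean of 125.001 (2% cut at each end) without a log transform. The sources used here do not give the summary software, its version, the detection calls or a genome build.

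Intensities were taken as log2(intensity + 16). The 64 controls among 45101 probe sets were set aside, and 29692 were kept for testing, those over the array's 40th percentile (17.8 to 20.8 units) on 2 or more arrays. Platform annotation pairs 34945 probe sets with a single symbol, 932 with more than 1 and 9160 with no symbol, and only the first kind named genes. Linear models with a term per strain were run in limma 3.58.1 (R 4.3.3), with eBayes, a variance trend and 7.58 prior beside 3 residual degrees of freedom, and p-values were adjusted by the Benjamini-Hochberg method. The calculation was tested on simulated data. Gene neighbours come from RefSeq GRCm38.p6.

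All members are accounted for. Values of every array are given for members called in any pairwise comparison and for the member of smallest F-test p in a role group without calls, and further arrays are shown where probe sets are compared or strains lie apart. Other pathway genes are named by adjusted p, up to 4 per list. The members and lists were chosen with earlier results of these data known. Alternatives were normalization by quantiles or by array medians, no filter, a filter at the 60th percentile, no variance trend, pseudocounts of 1 and 64, only the arrays compared, the replicate number as a block, each array left out, and the mean of a gene's probe sets. The number of arrays limits the precision.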

Additional observations from a re-analysis of the deposited data

How the results depend on the processing

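Quantile normalization, median centring, both pseudocounts, only the arrays compared and the replicate block kept every count of called members and probe sets within 1.5 times, and no called member changed direction under any of the 16 alternatives in which it was tested (Fas was not tested with the filter at the 60th percentile). Of the 15 called member differences, 4 were called under every alternative. Without the variance trend, 4, 1 and 1 members were called in MRL/MpJ against C57BL/6, AKR/N against C57BL/6 and MRL/MpJ against AKR/N, and 3 by the F test, with 1212, 1138, 421 and 1366 probe sets in place of 2975, 2960, 2052 and 4487. Without the filter, 3 members were called in AKR/N against C57BL/6 and 1327 probe sets between MRL/MpJ and AKR/N, where more probe sets share the adjustment. With a filter at the 60th percentile the median of the members in MRL/MpJ against C57BL/6 was 0.128. With the probe sets of a gene averaged, 3 members were called in AKR/N against C57BL/6. The cause of these shifts was not tested.

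With 1 array left out, members called ranged from 3 to 6, 2 to 5 and 1 to 2 in the 3 comparisons and from 4 to 7 by the F test. Probe sets called ranged from 1483 to 2545, 1290 to 2607, 694 to 2191 and 2698 to 3911. The members' medians ranged from 0.0158 to 0.123, 0.0204 to 0.108 and 0.0115 to 0.0498. The strain that lost an array was then assumed to vary like the others.

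Same-numbered arrays deviated from their strain means with correlations of 0.0425, 0.0493 and 0.0466 across probe sets, and the labels name no shared litter or day, so the numbers were not taken to pair the mice. With the replicate block, 8, 6 and 3 members were called, 10 by the F test, and 3510, 3492, 2549 and 5332 probe sets. Dim signal limits Fas, Casp9 in C57BL/6, Casp1 and Endog, for which no detection calls were used here.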

Other observations

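Genes that flank the called members in the GRCm38.p6 annotation were also compared, a look chosen after the values were seen. Of 16 tested flanking genes, 3 were called in MRL/MpJ against C57BL/6 and 3 in AKR/N against C57BL/6 by limma. Between MRL/MpJ and AKR/N 0 were called (2 at an unadjusted p under 0.05). Of all genes tested, 12.2%, 11.9% and 8.74% were called in these comparisons. The called flanking genes were Dnajc16 beside Casp9, Tmem123 beside Birc2 and Etv6 beside Bcl2l14, each higher than in C57BL/6. Tmem123, a membrane protein, read 122 and 101 units in C57BL/6, 182 and 163 in AKR/N and 163 and 168 in MRL/MpJ (0.52, adjusted p = 0.0231 in MRL/MpJ, and 0.57, adjusted p = 0.0142 in AKR/N), while Birc2 next to it was lower in those strains. Etv6, an ETS family transcription factor, read 40.1 and 35.7, 72.7 and 89.2, and 82.2 and 99.1 units (0.98, adjusted p = 0.00331, and 0.84, adjusted p = 0.00789).

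Among the 31 tested probe sets that did not stand for a member, 3 were called in MRL/MpJ against C57BL/6, for Casp9, Bcl2l1 and Bcl2l14. By limma 0 were called in AKR/N against C57BL/6 (5 at an unadjusted p under 0.05) and 0 in MRL/MpJ against AKR/N (3 at that level). Of all genes tested, 12.2%, 11.9% and 8.74% were called in the 3 comparisons in that order.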
